A study of Sus scrofa with 16 samples.

Results

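BEST4 enterocytes were taken from droplet RNA profiles of pig small intestine as barcodes with no UMI of the leukocyte gene PTPRC and at least 2 UMIs of BEST4, CA7 and OTOP2 together. They were thus chosen by measured values, the UMI counts of these 4 genes. A UMI is 1 counted RNA molecule, and a barcode stands for 1 droplet, normally 1 cell. Of 7061 barcodes kept after filtering, 54 met this gate, and they were counted as 54 of 872 epithelial barcodes. The gate alone put them there: some JEJ cells had UMIs of only 3 or 4 general epithelial genes, where other barcodes needed 5. The levels of these genes below describe that choice and were given no test.

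The animals were mixed-breed female pigs of 7.5 weeks, with no treatment named in the labels. DUOD was duodenum taken just after the pylorus, JEJ was jejunum about 3 feet further along, IPP was ileum with Peyer's patches, which are clusters of lymphoid follicles, and NoPP was ileum taken away from such patches. Epithelium was released with dithiothreitol and then EDTA in all 4 regions, cleaned on Percoll and filtered, so the matrices hold the cells that this release set free. The labels list 16 samples, 4 per region, but each region came as 1 pooled count matrix, so a region counted as 1 sample, pigs could not be told apart and no difference between regions was tested. Intervals for regions and shares are 95% and cover counting error only.

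BEST4 encodes a bestrophin anion channel gated by calcium. BEST4+ cells are a rare absorptive-lineage cell of the human intestine, and they have not been found in the mouse. In human tissue they also carry the proton channel OTOP2, the carbonic anhydrase CA7 and the peptides guanylin (GUCA2A) and uroguanylin (GUCA2B), which bind the receptor guanylyl cyclase C on neighbouring cells and raise cyclic GMP. In the human small intestine they carry the chloride and bicarbonate channel CFTR as well, which links them to fluid and pH control at the epithelial surface.

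The 54 cells were spread unevenly along the gut. DUOD gave 5 of 242 epithelial barcodes (2.07%, 0.674 to 4.76), JEJ 33 of 291 (11.3%, 7.94 to 15.6), IPP 7 of 221 (3.17%, 1.28 to 6.42) and NoPP 9 of 118 (7.63%, 3.55 to 14.0), with Clopper-Pearson intervals. The JEJ interval lay above those of DUOD and IPP and overlapped that of NoPP. Depth differed too, and was lowest in JEJ and NoPP, where the shares were highest. The BEST4 cells had a median of 7550 UMIs in DUOD and 4121 in JEJ, with 16786 in IPP and 5204 in NoPP. Other epithelial barcodes had medians of 23683.5, 9519, 15016 and 12144 in the same regions. The order of the regions turned with the gate. With every barcode thinned to 1000 UMIs before gating, NoPP stood highest at 6.78% (2.97 to 12.9), with 0.413% in DUOD (0.0105 to 2.28), 4.51% in JEJ (2.43 to 7.60) and 1.36% in IPP (0.281 to 3.92), so the JEJ interval then overlapped that of IPP. A gate that asked for any 2 of the 3 genes gave 1.24% in DUOD and 0.697% in JEJ, with 2.71% in IPP and 7.63% in NoPP, and JEJ was then the lowest.

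**Figure D1:**
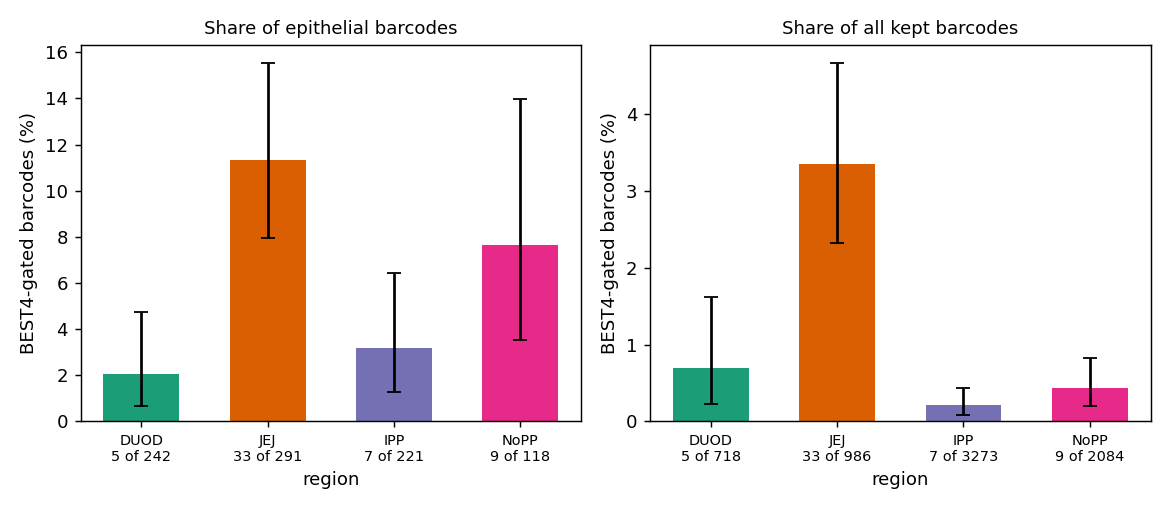
Share of BEST4 cells per region, as percent of epithelial barcodes (left) and of all kept barcodes (right). Bars are shares and lines are Clopper-Pearson 95% intervals. JEJ stands highest in both panels, at 11.3% of epithelial and 3.35% of kept barcodes, with the gate as used; of epithelial barcodes NoPP is highest with thinned barcodes (6.78%) and with any 2 of the 3 genes (7.63%).

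Lymphocytes served as the background for the gate, since they should lack its genes. Before the gate was applied to them, 1 of 299 lymphocyte barcodes in DUOD, 2 of 516 in JEJ, 7 of 1469 in IPP and 19 of 1564 in NoPP held any UMI of the 3 genes, at median depths of 2928 to 3771 UMIs. With the gate's 2 UMIs these counts were 0, 0, 1 and 2. No BEST4 cell shared its barcode with a BEST4 cell of another library, and 1 JEJ cell had 0.739 times as many UMIs on the same barcode in IPP, where it was not kept.

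The given markers separated along the gut. BEST4 was detected in 52 of the 54 cells and in all 4 regions, at 677 CPM in DUOD and 1335 in JEJ, with 612 in IPP and 1408 in NoPP. CPM is the gene's share of all UMIs summed over the cells of a region, scaled to a common total. CA7 was detected in 14 cells, all of them ileal: none of the 38 DUOD and JEJ cells and 14 of the 16 IPP and NoPP cells had a UMI. Its summed level was 0 in DUOD and JEJ, 1085 CPM in IPP and 3070 CPM in NoPP. OTOP2 was detected in 6 of the 38 DUOD and JEJ cells and in 13 of the 16 IPP and NoPP cells, at 118 CPM in DUOD and 38.8 in JEJ, with 668 in IPP and 1818 in NoPP.

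The combinations of markers showed the same divide. In JEJ, 30 of 33 cells entered the gate by BEST4 alone, 2 by BEST4 with OTOP2 and 1 by OTOP2 alone. In DUOD 3 of 5 cells had BEST4 with OTOP2 and 2 had BEST4 alone. In NoPP 8 of 9 had all 3 genes, and in IPP 3 of 7 did.

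**Figure D2:**
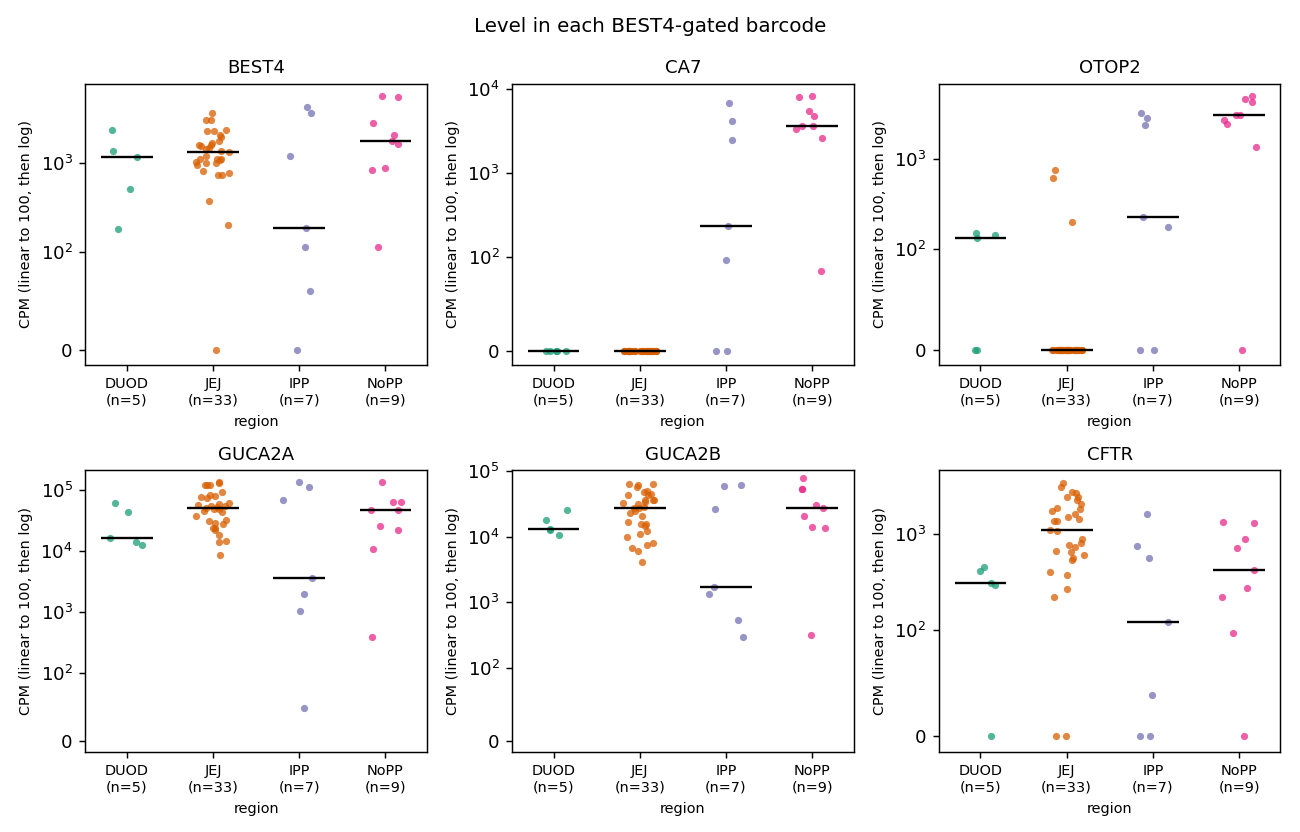
CPM of BEST4, CA7, OTOP2, GUCA2A, GUCA2B and CFTR in each BEST4 cell, by region; each point is 1 cell, the line is the median, and the axis is linear to 100 CPM and logarithmic above. CA7 is at 0 in every DUOD and JEJ cell, while GUCA2A and GUCA2B were detected in all 54 cells.

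The guanylins were not used by the gate, though they were named as markers of these cells. Both were detected in all 54 cells. GUCA2A reached 24920 CPM in DUOD and 67725 in JEJ, with 26608 in IPP and 39133 in NoPP, against 16.2, 65.1, 298 and 163 CPM in other epithelial barcodes of those regions. GUCA2B reached 15057, 28538, 12924 and 25952 CPM in the BEST4 cells, against 60.5, 60.3, 407 and 124 CPM in other epithelial barcodes. Each region showed the gap, and it was narrowest in IPP.

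Together the guanylins took up a large part of each cell's RNA. Their sum per cell was lowest at 26830 CPM, median 30325 and highest 85563 in DUOD, and lowest 14579, median 73118 and highest 185312 in JEJ. In NoPP it was lowest 713, median 74950 and highest 211974. In IPP it was lowest 341, median 4996 and highest 196721. All 5 DUOD, all 33 JEJ, 3 of 7 IPP and 8 of 9 NoPP cells held at least 10000 CPM, a line drawn after the values were seen, in a gap between 4996 and 14579 CPM.

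**Figure D3:**
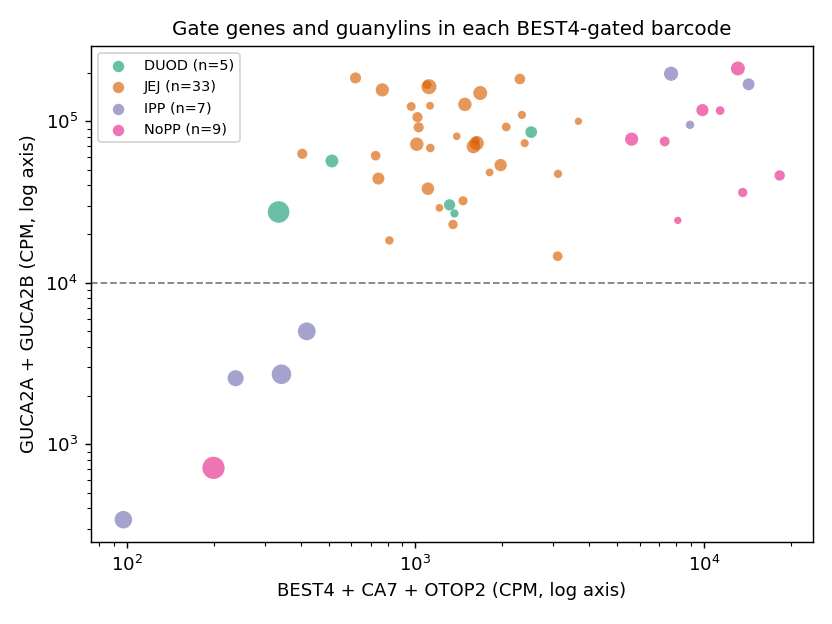
Summed CPM of BEST4, CA7 and OTOP2 (x axis, log scale) against summed CPM of GUCA2A and GUCA2B (y axis, log scale) in the 54 cells, coloured by region, with point size growing with the cell's UMIs; the dashed line marks 10000 CPM. The 4 IPP cells and 1 NoPP cell below the line have between 97.3 and 420 CPM of the 3 gate genes.

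The 5 cells below that line were set apart by their guanylins, which describes the choice of the line. They are called BEST4 cells by the gate alone. They differed in other genes too: SPIB was at 0 to 97.3 CPM in them, against 773 to 1761 CPM in the 11 guanylin-high ileal cells. The 4 in IPP had 2 to 9 gate UMIs among 16786 to 26211 UMIs, or 97.3 to 420 CPM. That is a description of the choice, and the lowest cells of DUOD and JEJ lay in that range, at 336 and 405 CPM. FABP6, the ileal bile acid binding protein of enterocytes, had 0, 75, 1611 and 2632 UMIs in the 4 low IPP cells, up to 122887 CPM. The cell at 0 held 42 UMIs of the enteroendocrine gene CHGA. The guanylin-high IPP cells had at most 3 UMIs of FABP6. The 1 low NoPP cell held most of the cell-cycle UMIs and all of the crypt UMIs of the NoPP cells. Without the 5 cells the share of epithelial barcodes was 1.36% (0.281 to 3.92) in IPP and 6.78% (2.97 to 12.9) in NoPP. The 4 cells supplied 84963 of the 107863 UMIs of IPP BEST4 cells and the 1 cell 35046 of the 83076 of NoPP, so they weigh heavily in summed ileal values. Values below are over all 54 cells unless the guanylin-high cells, the other 49, are named.

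Cells at the edge of the gate differed by region in the same way. Of the epithelial barcodes with 1 gate UMI, just outside, all 5 in JEJ passed the 10000 CPM line for the guanylins, at 77707 CPM or more. The 10 such barcodes in IPP had at most 830 CPM, and 1 of the 3 in DUOD passed. Just inside, the 5 JEJ cells at 2 gate UMIs had 18270 CPM or more, and the IPP cell at 2 had 341 CPM. With the barcodes at 1 gate UMI included, 8 JEJ and 1 DUOD epithelial barcodes outside the gate were above 10000 CPM, against none in IPP and NoPP.

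Markers of other cell types differed by list and by region. MUC2 of goblet cells and the T cell genes CD3D, CD3E, CD3G and CD2 were at 0 in all 54, as was PTPRC by the gate. The 12-gene lymphocyte list summed to 0 CPM in DUOD and 44.3 in JEJ, with 158 in IPP and 96.3 in NoPP, and 8 cells held at least 2 of its UMIs: 0 in DUOD and 1 in JEJ, with 5 in IPP and 2 in NoPP. The 7 enteroendocrine genes were at 0 in DUOD, JEJ and NoPP, and in IPP they had 83 UMIs, with 42 UMIs of CHGA in 1 guanylin-low cell. Of the 5 measured goblet genes, the UMIs summed to 406 CPM in DUOD and 936 in JEJ (169 UMIs), with 195 in IPP and 337 in NoPP, below the 2025 to 66714 CPM of other epithelium. The crypt list was at 0 in 3 regions and at 1469 CPM in NoPP BEST4 cells, against 123 CPM in other NoPP epithelium. Per NoPP cell its median was 0 and its highest value 3481 CPM, and all of its UMIs lay in the guanylin-low cell. The Paneth list, represented by LYZ, was at 1641 CPM in DUOD BEST4 cells, against 140 CPM in other DUOD epithelium. Per DUOD cell its median was 146 CPM and its highest value 2808 CPM. The 8-gene enterocyte list summed to 4602 CPM in DUOD and 5540 in JEJ, with 9994 in IPP and 1023 in NoPP. The part of these other transcripts in the results below was not tested.

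Genes that the gate had not used were then compared between the BEST4 cells and other epithelial barcodes. The other barcodes had no UMI of BEST4, CA7 or OTOP2 and included goblet and enteroendocrine cells. Only part of them held under 0.2% of their UMIs from goblet and enteroendocrine genes. These were 168 of 234 in DUOD and 208 of 253 in JEJ, with 132 of 204 in IPP and 37 of 109 in NoPP. UMIs were summed per region, giving 8 profiles, and edgeR's quasi-likelihood test treated the library as a block. Of 5964 genes tested, 87 were higher in the BEST4 cells (1.46%) and 97 were lower (1.63%) at a Benjamini-Hochberg adjusted p under 0.05. The counts depended on which libraries entered. Without DUOD they were 54 higher and 51 lower, without JEJ 52 and 61, without IPP 196 and 274, and without NoPP 138 and 206. With the barcodes that held at least 2 lymphocyte UMIs left out they were 246 and 385. In the 49 guanylin-high cells, an alternative chosen after seeing the data, they were 301 and 554, with a median log2 fold of -0.23 over all genes tested, and 180 of the 184 calls passed there too. The line for those cells was drawn on GUCA2A and GUCA2B, so their own calls in that fit describe the choice. With no library block 60 were higher and 17 lower, and the calls of all 9 lipid genes below, of MUC2 (edgeR adjusted p = 0.15) and of CA2 (0.38) were lost. The 4 libraries are the only replicates, so p-values measure how alike the difference was in 4 regions, which may be partly technical.

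Of the genes known to mark BEST4 cells in other species, 2 of the 5 tested were higher and none was lower, with a median log2 fold of 4.16 against -0.12 over all genes tested. CFTR was at 288 CPM in the BEST4 cells of DUOD and 1213 in JEJ, with 185 in IPP and 349 in NoPP, against 13.8, 38.9, 12.7 and 18.4 CPM in other epithelium. It was detected in 48 of 54 cells. Every region showed the excess, with a log2 fold of 4.16 ± 0.41 (SE, 4 libraries; edgeR adjusted p = 5.6e-06). In the guanylin-high cells CFTR was at 742 CPM in IPP and 604 in NoPP. LYPD8, also of this list, was lower in the fit of those cells (log2 fold -3.93 ± 0.41, edgeR adjusted p = 4.2e-19).

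MEIS1, a homeobox transcription factor, was at 186 CPM in DUOD and 244 in JEJ, with 46.4 in IPP and 156 in NoPP BEST4 cells, against 0.171, 1.35, 0 and 0 CPM in other epithelium. The difference rested on 73 UMIs in 36 of the 54 cells (edgeR adjusted p = 1.7e-07). In guanylin-high cells MEIS1 was at 218 CPM in IPP and 271 in NoPP.

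SPIB, an Ets-family transcription factor, had UMIs in 50 of 54 cells. Its level was 1455 CPM in DUOD and 1646 in JEJ, with 297 in IPP and 686 in NoPP BEST4 cells, against 0, 23.2, 29.8 and 0.707 CPM in other epithelium. The levels did not overlap, but the test did not call it, with a log2 fold of 6.96 ± 1.90 and an edgeR adjusted p of 0.17. In guanylin-high cells SPIB was at 1135 CPM in IPP and 1187 in NoPP, and it was not called there either (edgeR adjusted p = 0.16). HES4, a Notch target, was detected in 23 of 38 DUOD and JEJ cells and in 4 of 16 ileal cells. OTOP3, a relative of OTOP2, was at 118, 127, 27.8 and 72.2 CPM in the BEST4 cells from DUOD to NoPP, against 129, 12.6, 0 and 0.707 CPM, and was not called (edgeR adjusted p = 0.39).

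Of the 5 Notch pathway genes tested, 3 were higher in the BEST4 cells and none was lower, with a median log2 fold of 2.46. The receptor NOTCH2 was at 271, 526, 64.9 and 301 CPM in BEST4 cells of DUOD, JEJ, IPP and NoPP, against 1.20, 4.28, 1.90 and 3.54 CPM in other epithelium (log2 fold 6.43 ± 0.47, edgeR adjusted p = 1.7e-07). Its UMIs lay in 46 of the 54 cells, and lymphocyte barcodes had 20.6 to 35.5 CPM. In guanylin-high cells NOTCH2 was at 306 CPM in IPP and 499.7 in NoPP. The ligand JAG1 had a log2 fold of 2.89 ± 0.40 and the target HES1 one of 2.46 ± 0.37 (edgeR adjusted p = 0.00022 and 0.00052). HES1 was at 592 CPM in DUOD and 737 in JEJ, with 287 in IPP and 867 in NoPP BEST4 cells, against 77.6, 138, 60.8 and 96.9 CPM in other epithelium. In guanylin-high cells HES1 was at 1179 CPM in IPP and 1395 in NoPP.

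The largest folds were those of MS4A8 and ADAMDEC1. MS4A8, a membrane protein of the MS4A family, had 73 UMIs in 24 BEST4 cells and 2 UMIs in all 800 other epithelial barcodes (log2 fold 9.87 ± 0.65, edgeR adjusted p = 7e-08). ADAMDEC1, a secreted metalloproteinase-like protein, was at 321, 975, 1177 and 1733 CPM in the BEST4 cells from DUOD to NoPP, against 0.171, 0.450, 2.53 and 2.12 CPM in other epithelium (edgeR adjusted p = 1.9e-08). It had UMIs in 42 of the 54 cells, and in the guanylin-high ones it was at 5284 CPM in IPP and 2998 in NoPP. SCGB1A1, the secretoglobin known as club cell protein in the airway, was also called, at 1641 CPM in DUOD and 4288 in JEJ, with 18.5 in IPP and 0 in NoPP BEST4 cells, against 2.05, 51.1, 0 and 0 CPM (edgeR adjusted p = 2.2e-05).

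Of the remaining genes named as higher, several encode enzymes, receptors and transporters. ADCY5, an adenylyl cyclase, had 27 UMIs in 20 BEST4 cells and 2 UMIs in other epithelium (log2 fold 7.88 ± 0.76, edgeR adjusted p = 5.5e-06). PRKACB, a catalytic subunit of protein kinase A, had a log2 fold of 3.95 ± 0.73 (edgeR adjusted p = 0.019). VIPR1, a receptor for vasoactive intestinal peptide, was the 1 gene called of 6 tested receptor genes, at 135, 316, 74.2 and 132 CPM in BEST4 cells against 10.6, 13.7, 24.1 and 15.6 CPM (log2 fold 3.09 ± 0.47, edgeR adjusted p = 0.00063). PLCE1, a phospholipase C, had a log2 fold of 3.93 ± 0.62. The sulfate and anion exchanger SLC26A2 and CFTR were the 2 of 12 tested chloride and bicarbonate genes that were higher, and none of that list was lower (SLC26A2 log2 fold 1.58 ± 0.39, edgeR adjusted p = 0.032). The SLC26A2 call was lost without DUOD, JEJ or NoPP (edgeR adjusted p = 0.19, 0.096 and 0.083).

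CFD and CFP, complement factors of the alternative pathway, were both higher in the BEST4 cells. CFD, factor D, was detected in all 54 cells, at 14549 CPM in DUOD and 16543 in JEJ, with 4228 in IPP and 10195 in NoPP, against 1270, 385, 1104 and 1207 CPM in other epithelium (log2 fold 3.21 ± 0.51, edgeR adjusted p = 0.0016). In guanylin-high cells CFD was at 17817 CPM in IPP and 17302 in NoPP, so the 4 regions then lay between 14549 and 17817 CPM. CFP, properdin, was at 305, 438, 111 and 193 CPM in BEST4 cells, against 5.13, 36.0, 7.60 and 36.8 CPM (log2 fold 3.67 ± 0.48, edgeR adjusted p = 0.00014). The 2 factors were grouped after their values were seen.

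The other named genes follow. PBX3, a homeobox partner of MEIS proteins, had a log2 fold of 4.11 ± 0.43, and RAB32, a small GTPase of organelle traffic, one of 4.86 ± 0.62. CCNYL1, a cyclin Y relative, had one of 4.14 ± 0.49. NEURL1, a ubiquitin ligase, and DDX60, a helicase of antiviral sensing, had log2 folds of 2.99 ± 0.47 and 3.01 ± 0.39. C1orf21, GPR137B, FILIP1L, HSH2D, METTL21A and RASAL2 made up the rest, between 2.97 and 5.45. LAPTM5, a lysosomal protein of leukocytes, had a log2 fold of 4.14 ± 0.47, and its level of 46.4 to 186 CPM in BEST4 cells stood below the 695 to 950 CPM of lymphocyte barcodes. The part of lymphocyte RNA in this value was not tested. CD74, the invariant chain, was called on 52 UMIs in 6 cells. It was at 0 in JEJ BEST4 cells, against 2.25 CPM in other JEJ epithelium, and in IPP 98% of its UMIs came from 1 guanylin-low cell. The calls of FILIP1L, RASAL2 and CD74 were lost without DUOD (edgeR adjusted p = 0.068, 0.13 and 0.080), and those of HSH2D and RASAL2 without JEJ (0.11 and 0.14).

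**Figure D4:**
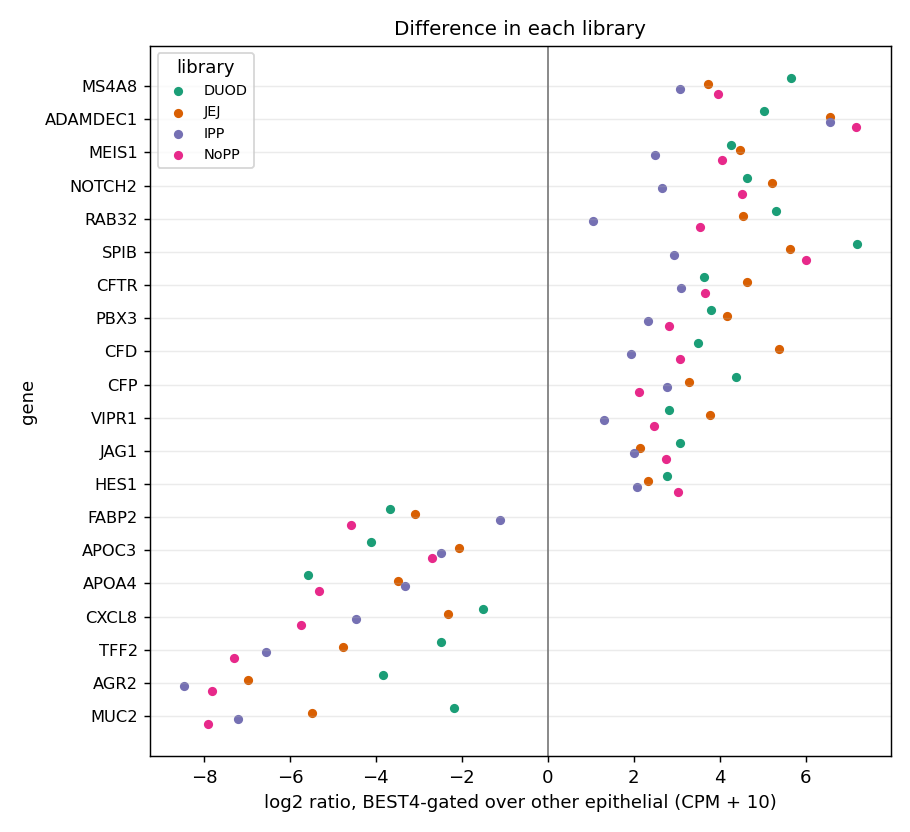
Log2 ratio of CPM in BEST4 cells over other epithelial barcodes, with 10 CPM added to both, for 20 genes; each point is 1 regional library. CFTR, NOTCH2 and ADAMDEC1 lie to the right of 0 in all 4 libraries, and MUC2 lies to the left of 0 in all 4.

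Of 18 tested genes of lipid uptake and lipoprotein assembly, 9 were lower in the BEST4 cells and none was higher, with a median log2 fold of -1.84. APOA4, an apolipoprotein of chylomicrons, was at 67.7, 249, 92.7 and 0 CPM in BEST4 cells from DUOD to NoPP, against 3698, 2893, 1011 and 393 CPM in other epithelium (log2 fold -4.56 ± 0.57, edgeR adjusted p = 9e-05). FABP2, the intestinal fatty acid binding protein, was at 33.8, 548, 1808 and 48.1 CPM, against 549, 4721, 3901 and 1372 CPM (log2 fold -3.23 ± 0.58, edgeR adjusted p = 0.0051). In the guanylin-high IPP cells FABP2 was at 87.3 CPM. APOC3, APOA1, APOB, the lipid transfer protein MTTP, the retinol binding protein RBP2, DGAT1, the last enzyme of triglyceride synthesis, and SLC27A4, a fatty acid transporter, were the other members called. Without DUOD 6 of the 9 calls were lost, without JEJ 6, and without NoPP 1, while no member turned direction. APOA4 and APOC3 passed in each of these fits, and FABP2 missed without JEJ (edgeR adjusted p = 0.066).

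Among the genes of amino acid uptake the cystine transporter subunit SLC7A9 was lower (log2 fold -1.87 ± 0.49). None of the 9 tested carbohydrate genes and none of the 5 tested bile acid genes passed, with median log2 folds of -1.57 and -2.23. In the fit of guanylin-high cells all 9 carbohydrate genes, among them the glucose transporter SLC5A1 (log2 fold -4.89 ± 0.59) and sucrase-isomaltase, SI (-2.06 ± 0.45), and 3 of the 5 bile acid genes were lower (edgeR adjusted p = 1.3e-14 for SLC5A1 and 0.00011 for SI). The peptide and amino acid list had 10 of 14 lower in that fit, and the lipid list 12 of 18. Over all 5961 genes tested in that fit, 554 were lower. The fit leaves out IPP cells with up to 109 UMIs of FABP2 and 2632 of FABP6. The list counts may partly follow from that removal, which was not tested. Of 15 mineral and metal genes 3 were lower: the iron transporter SLC11A2 (-4.81 ± 0.70), the manganese exporter SLC30A10 (-3.21 ± 0.58) and the metallothionein MT3 (-2.20 ± 0.46). The transcription factor CREB3L3, which drives lipoprotein genes in mouse, was the 1 lower of 33 tested regulators, and MEIS1 the 1 higher. The calls of SLC7A9 and CREB3L3 were lost both without DUOD (edgeR adjusted p = 0.18 and 0.075) and without JEJ (0.25 and 0.21), and those of MT3 and SLC30A10 without DUOD (0.080 and 0.056). With no library block all 3 mineral calls were lost (edgeR adjusted p = 0.28 for SLC11A2, 0.13 for SLC30A10 and 0.14 for MT3), and in the fit of guanylin-high cells 8 of the 15 were lower.

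Of the genes of ion and water handling, 2 of 9 tested sodium, potassium and proton genes, 1 of 2 carbonic anhydrases and 1 of 3 aquaporins were lower, and none was higher. CA2, the abundant cytosolic carbonic anhydrase, was at 135 CPM in DUOD BEST4 cells and at 0 in those of JEJ, IPP and NoPP, against 997, 85.1, 15.8 and 19.8 CPM in other epithelium (log2 fold -3.98 ± 0.66, edgeR adjusted p = 0.0015). The water channel AQP8 had 7 UMIs in 2 BEST4 cells (-3.67 ± 0.73), and the potassium channel KCNJ13 had 4 (-2.91 ± 0.73). FXYD3, a regulator of the sodium pump, had 1 UMI in the BEST4 cells, and its log2 fold was -6.04 ± 0.75 (edgeR adjusted p = 7.8e-05). ATP1B1, a subunit of that pump, did not pass. With no library block CA2, AQP8 and KCNJ13 were not called (edgeR adjusted p = 0.38, 0.25 and 0.32). AQP8 was not called without DUOD (edgeR adjusted p = 0.053), nor was KCNJ13 without DUOD or JEJ (0.095 and 0.49).

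Several secretory genes had few or no UMIs in the BEST4 cells. MUC2, the main gel-forming mucin, had 0 UMIs in the BEST4 cells and 35.2, 436, 1470 and 2391 CPM in other epithelium from DUOD to NoPP, so it was at least 146-fold lower, taking 3 UMIs over all 54 cells (edgeR adjusted p = 5.5e-06). The haptocorrin TCN1 and the granin SCG2, also at 0, were at least 28.3-fold and 21.4-fold lower on that floor. CDA, KIAA1324, KRT7 and S100A1 were at 0 with bounds of 7.86 to 4.73-fold. AGR2, a disulfide isomerase of mucin folding, and the hormone CCK each had 1 UMI in the BEST4 cells, and the peptide hormone NTS had 4. The other epithelium held goblet and enteroendocrine cells, so lower levels of their genes describe that choice of comparison in part. Of the 5 tested goblet genes 4 were lower, and of the 6 tested enteroendocrine genes 3 were lower, SCG2, CHGB and NEUROD1. Of these calls SPINK4 was lost without JEJ (edgeR adjusted p = 0.30), and that of S100A1 was lost without DUOD (0.060). The fifth goblet gene, TFF3, was not called (log2 fold -4.94 ± 1.35, edgeR adjusted p = 0.17), and it had 229 UMIs in 27 BEST4 cells. With goblet and enteroendocrine barcodes left out of the comparison, 22 of the 35 genes named by fold had a result. All 22 kept their call. TFF3, in that comparison, was higher in the BEST4 cells (log2 fold 3.28, edgeR adjusted p = 0.0058). It was itself among the goblet genes used to leave those barcodes out, and the BEST4 cells were put to no such limit. That call thus describes the choice of comparison in part. With guanylin-high cells set against all other epithelium TFF3 was lower (log2 fold -4.38 ± 0.46, edgeR adjusted p = 3.8e-16).

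None of the 12 general epithelial genes, the 8 interferon genes or the 15 stress and immediate early genes passed, and 1 of 15 junction and structure genes was lower. The median log2 folds of these lists were -0.27, 0.16, 0.09 and -0.31. The general epithelial genes had also been used to pick the other epithelial barcodes, so that list's result describes the choice in part. A gene that misses the threshold is not shown to be equal.

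Between regions, BEST4 cells of DUOD were set against those of JEJ. Of 1546 genes with at least 20 UMIs over both regions, 9.51% were past 2-fold higher in DUOD and 12.1% past 2-fold lower. Of 100 list genes measured, 15 were higher and 21 lower. One DUOD cell supplied 32765 of the 59110 UMIs of the 5 cells, so summed DUOD values lean on it.

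TM4SF1, a tetraspanin-like membrane protein, had 160 UMIs in the DUOD cells and 0 in the JEJ cells, which made it at least 163-fold higher in DUOD. All 5 DUOD cells held it, from 580 to 9801 CPM. Other epithelium showed the same divide, at 1323 CPM in DUOD and 0.225 in JEJ. BHLHE40, a circadian and stress-linked repressor, was 7.44-fold higher in DUOD (4.06 to 14.3), at 660 CPM in 5 of 5 DUOD cells, against 88.6 CPM in JEJ, where 8 of 33 cells held it. Other epithelium of DUOD did not show that excess, with 0.813 times the JEJ level.

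GPRC5A, an orphan receptor, was 5.67-fold higher in the DUOD cells (2.85 to 11.7), and the actin regulator GSN was 5.87-fold higher, with a lower bound of 2.89. P3H1 and CAMK2D, both at 7.42-fold, S100A6 at 6.11-fold and EFNA1 at 4.50-fold were also higher, as was CREG1 with 17 UMIs against 4. LYZ, lysozyme, was 8.46-fold higher, but 94.8% of its DUOD UMIs came from 1 cell, and at a 10% mitochondrial limit its log2 ratio turned to -0.19. FABP2 was 16.2-fold lower in DUOD (4.37 to 136), APOC3 10.7-fold lower (4.83 to 29.5) and RBP2 10.0-fold lower (3.33 to 49.6), and each was also lower in other epithelium of DUOD. ISG15, an interferon-induced modifier, was 15.9-fold lower, but 90.7% of its JEJ UMIs came from 1 cell. SLC25A36 and AP1AR completed the 10 lowest ratios, with 1 UMI each in DUOD.

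Of the 10 lowest ratios of DUOD over JEJ, 4 were heat-shock genes. DNAJB1, a co-chaperone, was 25.6-fold lower in DUOD (9.91 to 94.6), ZFAND2A 9.17-fold (4.75 to 20.3) and HSP70.2, an inducible HSP70 of the pig, 8.06-fold (5.85 to 11.4). BAG3, another co-chaperone, was at 84.6 CPM in DUOD, against 931 in JEJ. With HSPB1, a set put together after the values were seen, they summed to 1404 CPM in DUOD and 10665 in JEJ, with 705 in IPP and 782 in NoPP BEST4 cells. All 33 JEJ cells had at least 1000 CPM, from 1624 to 29500 with a median of 9050. Other JEJ epithelium was at 938 CPM and JEJ lymphocytes at 694 CPM. The sum did not follow depth within the JEJ cells (Spearman's rho -0.05 over 33 cells of 1 library, as a description).

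BEST4 cells of NoPP were next set against those of JEJ. Of 1781 genes measured, 14.2% were past 2-fold higher in NoPP and 16.3% past 2-fold lower. Of 109 list genes, 18 were higher and 40 lower. In the guanylin-high NoPP cells 13 of 98 were higher and 27 lower, with no share over all genes for that setting.

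CA4, a membrane-anchored carbonic anhydrase, was 118-fold higher in NoPP than in JEJ (32.0 to 990), with 109 UMIs in 7 of 9 NoPP cells and 2 UMIs in 2 of 33 JEJ cells. Its level was 0 CPM in DUOD and 11.1 in JEJ, with 788 in IPP and 1312 in NoPP BEST4 cells, against 0.855, 0, 11.4 and 9.20 CPM in other epithelium. In guanylin-high cells it was at 3581 CPM in IPP, where 3 of 3 held it, and 2269 CPM in NoPP, where 7 of 8 did. CA4 and the gate gene CA7 thus lay in the same regions, and CA2 was at 0 in them and in JEJ.

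NAALADL1, a brush border peptidase, was 71.2-fold higher in NoPP (27.1 to 265), at 1577 CPM in 9 of 9 cells, against 22.2 CPM in 3 of 33 JEJ cells. Other epithelium had 807 CPM in NoPP and 322 CPM in JEJ. The BEST4 cells stood below it in JEJ and above it in NoPP. Its mix of cells differed between these regions. Goblet genes summed to 66714 CPM in other NoPP epithelium and 16245 CPM in that of JEJ, and the enterocyte list to 7452 and 43345 CPM. The NoPP value thus does not place the BEST4 cells above NoPP enterocytes alone. In IPP BEST4 cells NAALADL1 was at 2392 CPM, and at 3843 CPM in the guanylin-high cells. DEFB1, a beta-defensin, was at least 36.2-fold higher in NoPP, with 50 UMIs in 6 of 9 cells against 0 in 33 JEJ cells. In other epithelium it was at 61.6 CPM in NoPP and 5.85 CPM in JEJ. Over the guanylin-high NoPP cells the ratios to JEJ were 118 for NAALADL1 and at least 62.6 for DEFB1.

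FABP6 was at least 19.6-fold higher in NoPP BEST4 cells, at 325 CPM in 9 of 9 cells against 0 in JEJ. Other NoPP epithelium was at 24864 CPM, and 37.6% of NoPP lymphocyte barcodes held a FABP6 UMI. HMGN2, SMC4, FCN2 and HMGB2 were also among the 10 highest ratios, and 85.0 to 95.5% of their NoPP UMIs came from 1 cell. The gate genes CA7 and OTOP2 made up the rest of the 10.

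SCGB1A1 and CALB1 were detected mostly in DUOD and JEJ cells. SCGB1A1 had UMIs in 4 of 5 DUOD and 20 of 33 JEJ cells, but in 1 of 7 IPP and 0 of 9 NoPP cells, and was at least 119-fold lower in NoPP than in JEJ. In JEJ it ran between 0 and 28152 CPM with a median of 406. CALB1, calbindin, a cytosolic calcium buffer, had UMIs in 5 of 5 DUOD and 17 of 33 JEJ cells, but in 1 of 7 IPP and 1 of 9 NoPP cells, at 2639, 792, 9.27 and 12.0 CPM. It was 65.8-fold lower in NoPP than in JEJ (11.6 to 2618) and stayed at 0.707 to 1.71 CPM in other epithelium of all regions.

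Within JEJ these genes did not divide the cells into separate sets. Both were detected in 11 of 33 cells, SCGB1A1 alone in 9, CALB1 alone in 6 and neither in 7. Depth moved with detection: the median was 8066 UMIs for cells with both genes and 2666, 3007 and 2463 UMIs for the other classes. Their CPM had a Spearman's rho of -0.09 over the 33 cells, as a description.

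**Figure D5:**
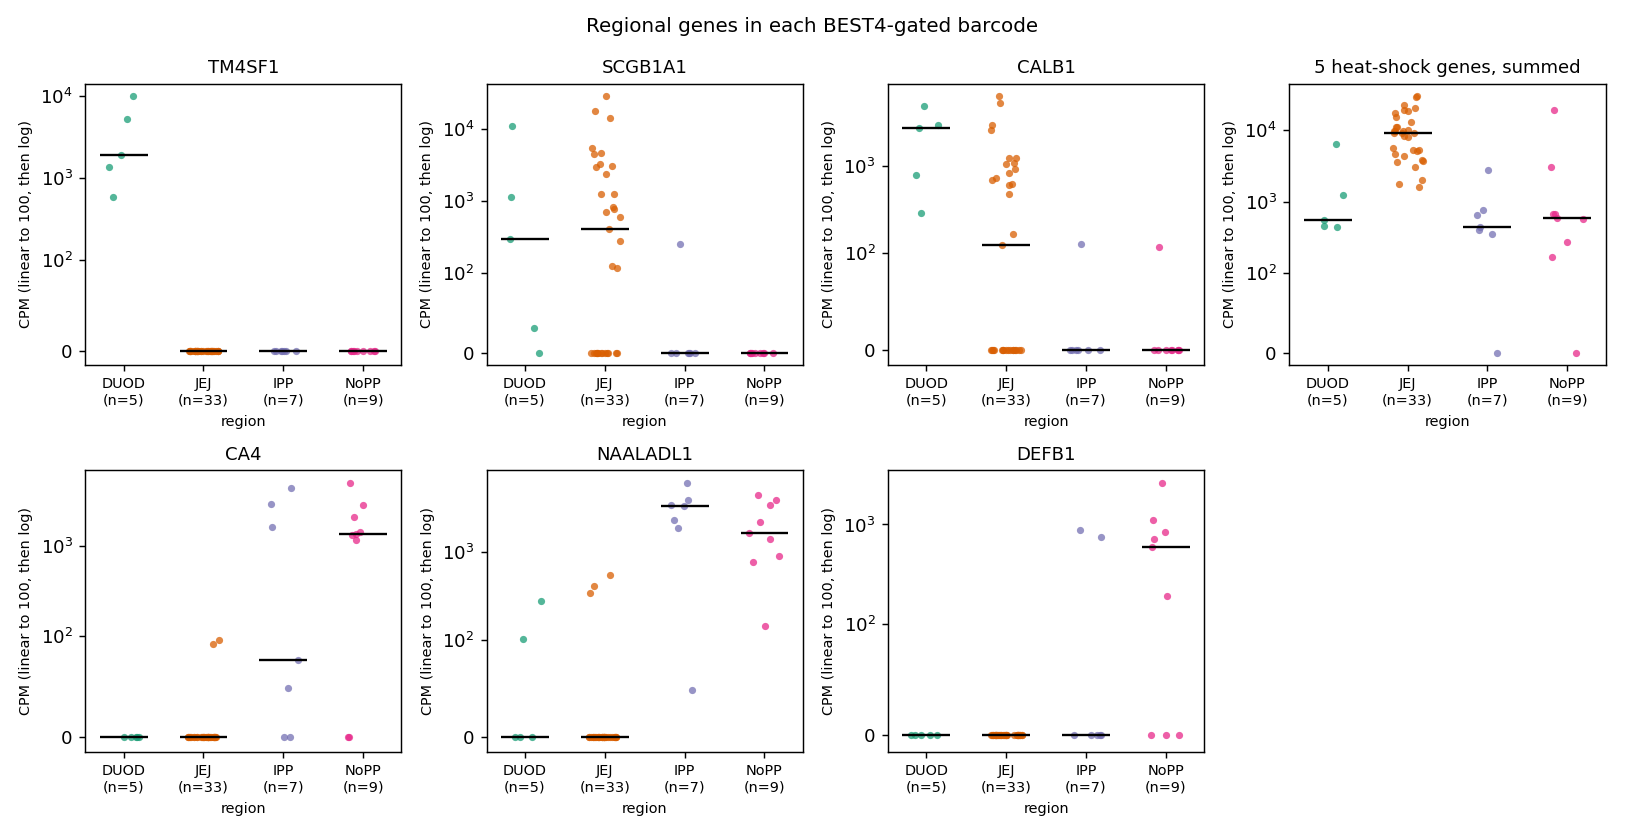
CPM of TM4SF1, SCGB1A1, CALB1, the sum of 5 heat-shock genes, CA4, NAALADL1 and DEFB1 in each BEST4 cell, by region; each point is 1 cell and the line is the median. TM4SF1 is above 0 only in the 5 DUOD cells, the heat-shock sum is at 1624 CPM or more in every JEJ cell, and DEFB1 is above 0 only in 2 IPP and 6 NoPP cells.

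Genes of absorption were among the others lower in NoPP. S100G, the calcium binding protein calbindin-D9k, was 281-fold lower in NoPP BEST4 cells (50.3 to 11126), at 12.0 CPM against 3385 CPM in JEJ. Other epithelium had 782 CPM in NoPP and 34838 CPM in JEJ, and 79.2% of JEJ lymphocyte barcodes held an S100G UMI. APOA1 was 82.7-fold lower (28.1 to 402) and APOC3 at least 30.1-fold lower. APOA1 was held by 32 of 33 JEJ cells, and by 79.6% of JEJ lymphocyte barcodes. Its CPM was lower in the deeper JEJ cells (Spearman's rho -0.71, as a description). RBP2 was 21.2-fold lower (5.70 to 177) and the glutathione transferase GSTA2 at least 22.9-fold lower. NQO1, a quinone reductase, was 63.5-fold lower in NoPP (11.2 to 2527), at 12.0 CPM against 765 CPM in JEJ, while other epithelium had 12.7 CPM in NoPP and 767 CPM in JEJ. ZFAND2A and BAG3 of the heat-shock set were the rest, 38.7-fold and at least 25.8-fold lower.

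IPP is given by counts, since 4 of its 7 cells were guanylin-low. Against JEJ, 42 of 131 list genes were past 2-fold higher and 41 lower, where all measured genes gave 10.6% and 27.5%. In the 3 guanylin-high cells the counts were 9 higher and 28 lower of 92. Against NoPP, IPP had 43 higher and 16 lower of 112 list genes, where all measured genes gave 12.2% and 22.5%. Between the guanylin-high cells of IPP and NoPP none was higher and 3 were lower of 45 measured. The counts of guanylin-high cells have no share over all genes beside them. With 3 IPP cells fewer list genes were measured, so the counts do not show the 2 ileal regions to be alike. ONECUT2, a homeobox factor, was detected in 4 of 5 DUOD and 26 of 33 JEJ cells and in none of the 16 ileal cells, and other epithelium followed that order, at 163 CPM in DUOD and 156 in JEJ, with 1.27 in IPP and 6.37 in NoPP.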

How the data were processed

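Epithelium-enriched pig cells were profiled with 10x Chromium 3' version 3 chemistry, per the labels. The deposited values are raw UMI counts per gene and barcode from Cell Ranger (version 4 per the file headers, 4.0.6 per the submitters' processing notes). The genome build is not given in the sources used here. Matrix totals were 44726845 to 91813234 UMIs. Of the gene IDs, 17733 carried a symbol, 977 took one from the gene name table and 7170 had none.

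Barcodes were kept with at least 1000 UMIs, 500 genes and at most 25% of UMIs from 13 mitochondrial genes. A NoPP barcode was dropped where DUOD held the same barcode at 10 or more times its UMIs (121 barcodes). Epithelial barcodes had no PTPRC UMI, at least 5 general epithelial genes and more of their UMIs than lymphocyte UMIs. The BEST4 cells were counted as epithelial by their own gate, without these limits on epithelial genes. Lymphocyte barcodes had UMIs of PTPRC and of CD3D, CD3E or CD3G and none of EPCAM. No doublet caller was run.

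Sums were tested with edgeR 4.0.16 in R 4.3.3 (filterByExpr, TMM, library block, Benjamini-Hochberg), checked on simulated counts, with DESeq2 1.42.0 as an alternative. Regions were compared by ratios of CPM with exact Poisson intervals, where 0 was set to 3 UMIs over the region's cells. Python 3.11.15 was used with numpy 2.4.6, scipy 1.17.1, pandas 2.3.3 and matplotlib 3.10.9.

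The text names the given markers, list genes, the 25 genes most higher and 10 most lower that passed in the same direction in all 4 libraries, and the 10 highest and 10 lowest ratios between regions (at least 20 UMIs, 3 cells in the higher region), for DUOD and NoPP against JEJ. The cells, lists and rules were chosen with earlier results of these data known. Alternatives were another normalization, no filter, each library left out, no block, other gates, limits and reference cells, and the guanylin-high cells, chosen after seeing the data.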

Additional observations from a re-analysis of the deposited data

Results flagged for a closer look

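In 2 genes 1 library stood apart from the other 3 in the log2 ratio of BEST4 cells over other epithelium. For NTS the gap took up 0.854 of the range, and DUOD stood apart, with 0 UMIs in the BEST4 cells and 0.513 CPM in other epithelium, so its ratio rests on the 0.5 UMI added to both. For GPR137B the gap was 0.906 of the range, with JEJ apart at a log2 ratio of 5.52 and the others between 3.46 and 3.65, on 33 UMIs. Chance gives about 1 such result in 20 groups.

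The immediate early genes FOS, EGR1, ATF3 and JUN and the claudin CLDN4 were higher in BEST4 cells than in other epithelium in DUOD and JEJ, and lower in IPP and NoPP. The log2 ratio from DUOD to NoPP was 1.81, 1.43, -0.49 and -1.74 for FOS and 1.71, 2.21, -1.12 and -1.82 for ATF3. It was 1.98, 1.34, -0.73 and -1.20 for EGR1, and 1.63, 1.50, -0.34 and -0.91 for JUN. For CLDN4 it was 1.14, 0.642, -2.24 and -1.35. In the 3 guanylin-high IPP cells JUN was at 3100 CPM and FOS, found in 1 of them, at 1703, against 1986 and 1586 CPM in other IPP epithelium, so these turned without the 4 guanylin-low cells. EGR1, ATF3 and CLDN4 stayed lower there, at 262, 349 and 393 CPM against 561, 653 and 1557. The difference between regions was not tested.

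Many barcodes inside the gate lay above the mitochondrial limit and entered no comparison: 15 in DUOD and 21 in JEJ, with 27 in IPP and 13 in NoPP. Of these, 8, 15, 16 and 8 held at least 10000 CPM of the guanylins. CA7 was found in 1 of those DUOD barcodes, none in JEJ, 22 in IPP and 12 in NoPP, and OTOP2 in 3, 4, 19 and 13. A further 6 JEJ barcodes in the gate had at least 500 but under 1000 UMIs, all of them above 10000 CPM of the guanylins.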

How the results depend on the processing

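No paired analysis was possible because the replicate numbers of the titles could not be tied to barcodes. The regional library was a block in the test; with no block it called 77 genes (17 lower). The 184 calls became 604 with no filter on low counts (192 higher, 412 lower), 105 to 470 with 1 library left out (52 to 196 higher, 51 to 274 lower), 482 with the thinned gate (367 lower) 631 without barcodes holding 2 lymphocyte UMIs (246 higher, 385 lower) and 855 in guanylin-high cells, an alternative chosen after seeing the data (301 higher, 554 lower). Without goblet and enteroendocrine barcodes in the comparison 132 were higher, and a 10% mitochondrial limit gave 152 lower. DESeq2 called 118 higher and 107 lower. In the comparison without goblet and enteroendocrine barcodes KRT18 turned to a log2 fold of 2.04 and TFF3 to 3.28. TFF3 was among the genes used to leave those barcodes out, so its turn describes that choice in part. The cause of the KRT18 turn was not tested.

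The share of kept barcodes was 0.139% in DUOD and 1.32% in JEJ with the thinned gate, and 0.203% in JEJ with 2 of 3 genes. Leaving out barcodes with 2 lymphocyte UMIs also removes most lymphocytes from the denominator, and gave 1.91% in DUOD and 11.2% in JEJ, with 1.06% in IPP and 7.87% in NoPP. Of epithelial barcodes, the thinned gate gave 0.413% in DUOD and 4.51% in JEJ, and 2 of 3 genes 0.697% in JEJ.

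List genes past 2-fold, DUOD over JEJ, were 8 higher without each gene's highest barcode and 9 at a 10% mitochondrial limit. IPP over JEJ gave 24 and 7 higher under these, 13 higher and 19 lower without lymphocyte-UMI barcodes, and 9 higher in guanylin-high cells, likewise chosen after seeing the data. NoPP over JEJ gave 7 and 7 higher, 26 lower at the 10% limit and 26 lower without lymphocyte-UMI barcodes. IPP over NoPP gave 22 and 5 higher, 2 higher and 7 lower without lymphocyte-UMI barcodes, and 0 higher and 3 lower in guanylin-high cells. No share over all genes stands beside the counts of these alternatives. At the 10% limit LYZ (-0.19) and BEST4 (0.11) reversed in the log2 ratio of DUOD over JEJ. For NoPP over JEJ, GUCA2B reversed to 0.15 as a mean over cells, 0.65 at the 10% limit, 0.68 without lymphocyte-UMI barcodes and 0.65 in guanylin-high cells, and GUCA2A to 0.028 at the 10% limit and 0.0100 without lymphocyte-UMI barcodes. Another scaling moved the median log2 ratio of all genes to -0.09 for IPP over JEJ and to -0.16 for IPP over NoPP, against -0.34 and -0.38. With 5 to 33 cells per region and 1 sample each, small differences were not detectable.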
